A study of Homo sapiens with 48 samples.

Results

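Keratins are the proteins that epithelial cells assemble into intermediate filaments. The 32 keratin genes described here were taken by symbol from a list of the keratin family: 15 type I genes and 17 type II genes, out of 35535 genes in the count table. RNA was sequenced from 8 lines of human bladder cancer: VMCUB, TCCSUP, 639V, T24, SW780, KU1919, HT1376 and HT1197. Each was kept for 4 days with 250 nM CPI-0209 or with its vehicle DMSO, with 3 libraries per line and treatment and 48 libraries in all. CPI-0209 inhibits EZH2, the enzyme of Polycomb repressive complex PRC2 that methylates histone H3 at repressed genes. The lines carried no engineered allele in the labels, and each grew in its own medium. Library totals ranged from 26481418 to 50916911 counts. Separate cultures are not mentioned in the labels, and p-values thus measure the spread between these libraries, which may be technical.

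A keratin filament is built from pairs of 1 type I and 1 type II protein, so the genes are commonly described as partners, such as KRT8 with KRT18 and KRT5 with KRT14. Simple epithelial keratins (KRT7, KRT8, KRT18, KRT19, KRT20) are typical of single-layered and luminal cells, and KRT20 marks the umbrella cells at the surface of the urothelium. KRT5, KRT14, KRT15 and KRT17 mark basal cells, KRT6A, KRT6B, KRT6C and KRT16 are induced in wounded or fast-growing epithelia, and KRT4 with KRT13 and KRT1 with KRT10 belong to suprabasal layers. Hair keratins (KRT31, KRT33B, KRT34, KRT81, KRT83, KRT86) are known from the hair shaft. Bladder tumors are often sorted into luminal and basal kinds by KRT20 and KRT5 with KRT14.

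On GRCh38 the members stood in the keratin clusters of chromosome 12, with 18 genes, and chromosome 17, with 14 genes. KRT18 was the only type I gene on chromosome 12 (52948871 to 52952901, plus strand), where it overlaps KRT8 (52897187 to 52949954, minus strand). KRT7 overlaps KRT86 on the same strand, and KRT81 lies within the span of KRT86 on the opposite strand. A strand setting of the counting is not known, so reads of KRT8 with KRT18 and of KRT81 with KRT86 cannot be fully told apart.

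The genes KRT6A (chromosome 12, 52487174 to 52493257), KRT6B (52446651 to 52452126) and KRT6C (52468516 to 52473785) are near-identical copies. Their coding sequences in GENCODE 29 are each 1695 bases long and differ among the 3 at 52 positions. The 60 coding bases from 663 to 722, counted from the start codon, hold the most differences, 9, and are shown because they are where reads can best be assigned. Capitals mark the positions that differ between any of the 3.
KRT6A: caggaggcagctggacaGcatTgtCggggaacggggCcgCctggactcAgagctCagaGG
KRT6B: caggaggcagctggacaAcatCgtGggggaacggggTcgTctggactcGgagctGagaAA
KRT6C: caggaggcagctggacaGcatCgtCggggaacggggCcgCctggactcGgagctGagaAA
Of the 150-base stretches of the KRT6A coding sequence, 7.76% also stood in KRT6B and 12.9% in KRT6C. KRT6B and KRT6C shared 16.4% of theirs. KRT81 shared 33.3% of its stretches with KRT86, with 605 bases as the longest common run. Levels of the low copies beside a high one, such as KRT6B and KRT6C beside KRT6A, are uncertain.

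RefSeq promoters (GRCh38.p14, 250 bases before to 50 after the start) matched 14 of the 32 members. These 14 held between 0 and 8 CpG dinucleotides, with a median of 2, against a median of 14 over 35116 promoters of the same length. The letters TATAAA, searched only on the strand of the gene, stood in 6 of 14 and in 7.33% of all promoters. The AP-1 letters TGANTCA stood in 0 of 14 and in 7.71% of all. The promoters of KRT4, KRT5, KRT75 and KRT34 are shown, with CpG in capitals, because these are the 4 of the 14 genes that were called higher with CPI-0209 both in HT1376 and in TCCSUP. In TCCSUP, KRT75 passed the filter on low counts through its CPI-0209 libraries alone.
KRT4, chr12:52814067-52814366, minus strand: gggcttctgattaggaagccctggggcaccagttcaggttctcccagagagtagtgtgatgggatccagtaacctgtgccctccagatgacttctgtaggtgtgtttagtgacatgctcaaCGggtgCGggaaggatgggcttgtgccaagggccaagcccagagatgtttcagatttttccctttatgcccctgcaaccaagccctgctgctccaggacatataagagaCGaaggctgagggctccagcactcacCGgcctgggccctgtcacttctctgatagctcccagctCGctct
KRT5, chr12:52520345-52520644, minus strand: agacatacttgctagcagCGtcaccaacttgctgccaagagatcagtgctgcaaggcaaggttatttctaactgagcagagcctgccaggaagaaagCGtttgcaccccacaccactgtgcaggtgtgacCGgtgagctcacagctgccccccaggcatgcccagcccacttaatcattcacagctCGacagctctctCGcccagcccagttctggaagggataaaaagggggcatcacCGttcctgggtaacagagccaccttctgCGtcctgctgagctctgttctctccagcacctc
KRT75, chr12:52434322-52434621, minus strand: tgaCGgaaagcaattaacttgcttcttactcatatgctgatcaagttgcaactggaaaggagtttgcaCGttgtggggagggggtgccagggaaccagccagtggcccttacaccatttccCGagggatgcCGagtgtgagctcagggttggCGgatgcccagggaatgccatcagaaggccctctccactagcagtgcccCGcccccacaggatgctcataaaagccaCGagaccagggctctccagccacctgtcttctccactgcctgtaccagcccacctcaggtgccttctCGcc
KRT34, chr17:41382257-41382556, minus strand: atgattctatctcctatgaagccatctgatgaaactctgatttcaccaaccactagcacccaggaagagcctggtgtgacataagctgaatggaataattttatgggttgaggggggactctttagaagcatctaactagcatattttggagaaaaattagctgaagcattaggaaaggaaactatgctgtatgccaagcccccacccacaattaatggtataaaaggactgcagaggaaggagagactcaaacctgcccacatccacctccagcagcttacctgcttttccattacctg
These promoters differed in CpG number, with 5 in KRT4, 7 in KRT5, 8 in KRT75 and 0 in KRT34. KRT34 held TATAAA and the others shown did not.

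Of the 6 T24 libraries, DMSO replicates 1 and 2 stood apart. KRT5 was at 69.1 and 21.6 CPM (counts per library size, scaled by TMM) in these and at 0.883 in DMSO replicate 3. KRT6A was at 62.6 and 19.3 against 0.817, and KRT14 at 11.4 and 5.20 against 1.14. The 3 CPI-0209 libraries of T24 resembled DMSO replicate 3, with KRT5 between 1.29 and 2.04. In the 2 libraries KRT5 reached 4.08% and 1.28% of its VMCUB level in DMSO and KRT6A 3.52% and 1.09%. Other genes moved in parallel. A set of 24 other genes averaged at least 50 CPM in VMCUB DMSO and had a median below 1 CPM over the 6 T24 libraries. In DMSO replicates 1 and 2 these genes had a median of 4.09% and 1.60% of the VMCUB level. Across the libraries of the other 7 lines, the highest such median for any pair of lines was 0.93%, and in the other 4 T24 libraries it was 1.13%. What these 2 libraries hold was not tested further, and results that rest on them are given with and without them.

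**Figure D1:**
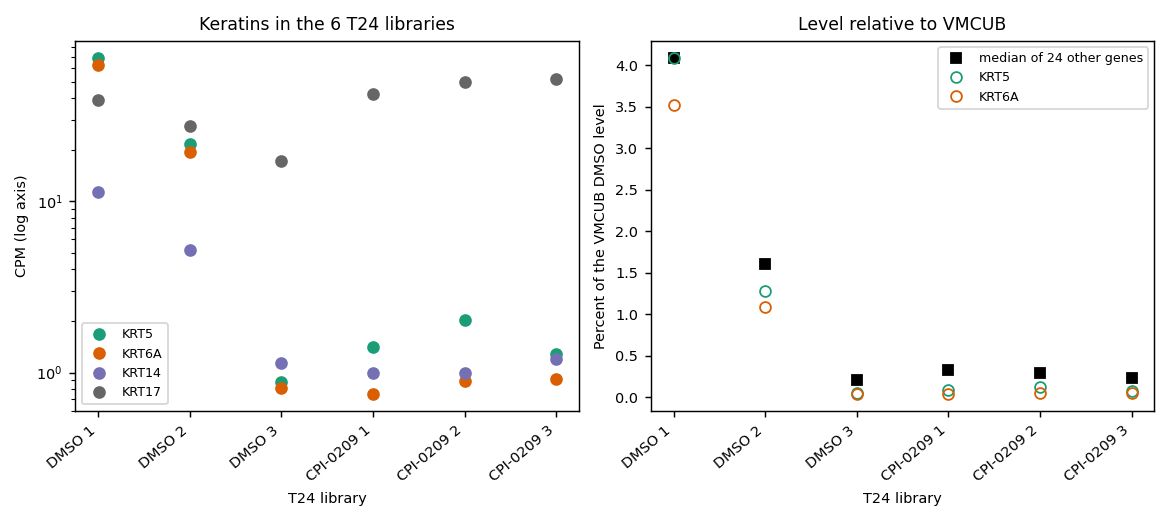
KRT5, KRT6A, KRT14 and KRT17 in the 6 T24 libraries, in CPM on a log axis (left), and KRT5, KRT6A and the median of 24 other genes as a percent of the VMCUB DMSO level (right). DMSO 1 and DMSO 2 lie above the other 4 libraries for KRT5, KRT6A and KRT14, and the 24 other genes stand at 4.09% and 1.60% there.

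In DMSO the keratins differed between the lines more than between replicates. All 31 members that passed the filter on low counts differed in an F test over the 24 DMSO libraries (edgeR quasi-likelihood test, Benjamini-Hochberg adjusted p under 0.05), as did 97.5% of all genes tested. Between single pairs of lines, 65.3% to 75.7% of genes differed. KRT2, an epidermal keratin, averaged at most 0.0538 CPM in DMSO and was tested nowhere. HT1376 expressed 23 of the 32 members at 1 CPM or more and 639V only 9. All members together made up between 0.302% of the library size scaled by TMM in 639V and 4.56% in HT1197, in DMSO. In such bulk RNA, fewer cells with a transcript and less RNA per cell cannot be told apart.

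**Figure D2:**
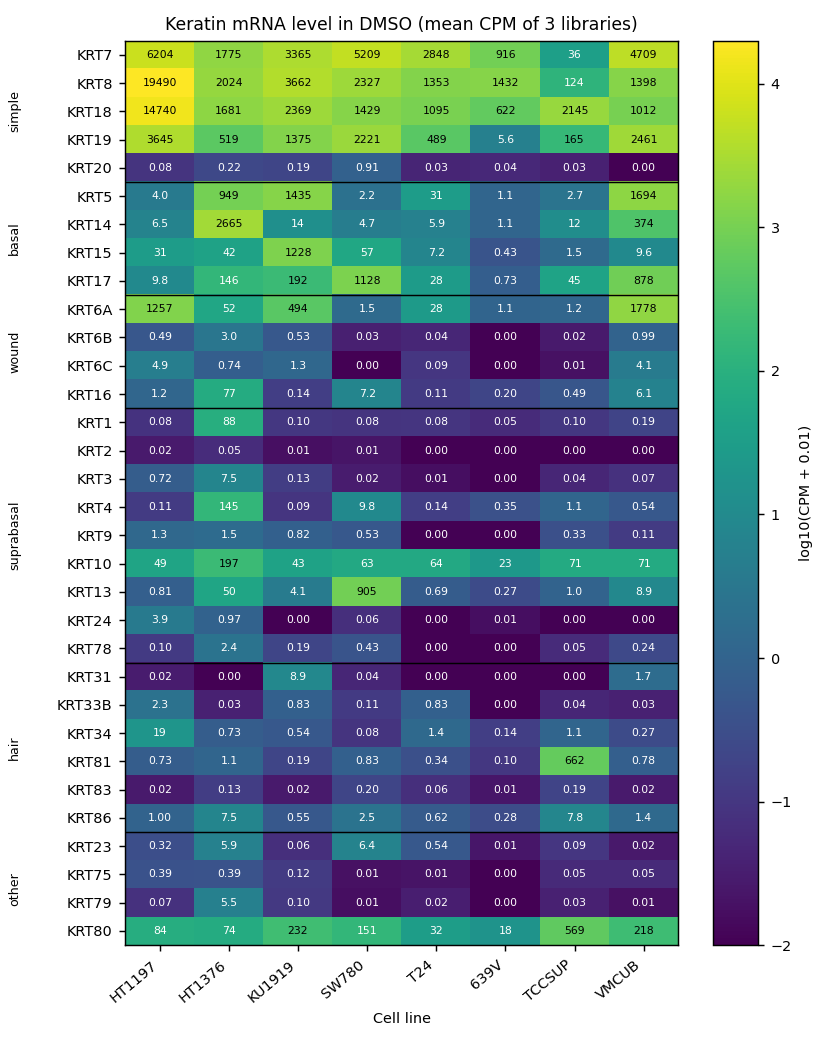
Mean level of each keratin in DMSO (CPM, 3 libraries per line, printed in each cell), with genes in rows by role, lines in columns and color on a log10 scale. Simple keratins other than KRT20 are high in most lines, while basal, wound, suprabasal and hair keratins are each high in only some, such as KRT81 at 662 CPM in TCCSUP.

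KRT8, the type II simple keratin, was highest in HT1197, at 18036, 19382 and 21044 CPM, and lowest in TCCSUP, at 126, 118 and 129. The other 6 lines lay in between, and SW780 with HT1376 (edgeR adjusted p = 0.148) and 639V, VMCUB and T24 were neighbors that did not differ beyond their spread (edgeR adjusted p of 0.415 and 0.904). KRT18, its type I partner, was also highest in HT1197, at 14740 ± 1010 CPM (SD, n = 3). TCCSUP was the third, at 2145 ± 155 CPM, and did not differ from KU1919 (edgeR adjusted p = 0.187). On the scale of CPM per kb of exon, KRT8 over KRT18 was 0.0272 ± 0.0009 in TCCSUP and between 0.563 and 1.08 in the other lines. KRT18 alone made up 51.4% of the keratin level per kb in TCCSUP. This share depends on the length used, as KRT18 has 3218 bases of exon and a longest transcript of 1696.

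The other simple keratins split the lines differently. KRT7, found in many glandular and urothelial cells, reached 6204 ± 529 CPM in HT1197 and 36.0 ± 1.48 in TCCSUP, with 639V next above at 916. KRT19, the smallest keratin, was lowest in 639V, at 5.60, 6.09 and 5.20 CPM, and highest in HT1197, at 3645 ± 227. In 639V the epithelial marker EPCAM was at 0.936 CPM and the mesenchymal vimentin gene VIM at 537 CPM. KRT20 was low in all lines: SW780 was highest, at 0.838, 0.813 and 1.09 CPM, and above HT1376 (edgeR adjusted p = 0.000552). VMCUB had 0 counts of KRT20 in 3 DMSO libraries.

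Basal keratins averaged 100 CPM or more in 4 lines for KRT17, 3 for KRT5, 2 for KRT14 and 1 for KRT15. KRT5 was at 1829, 1395 and 1860 CPM in VMCUB, at 1435 ± 29.3 in KU1919 and at 949 ± 47.5 in HT1376. These 3 did not differ from one another as neighbors with all libraries (edgeR adjusted p of 0.768 and 0.419), and did differ without DMSO replicates 1 and 2 of T24 (0.0385 and 1.03e-05). The other 5 lines lay far lower, and all but T24 between 1.13 and 3.95 CPM. Without DMSO replicates 1 and 2 of T24, T24 moved from the fourth place, at 30.5 CPM, to the last, at 0.883, and did not differ from 639V (edgeR adjusted p = 0.39).

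KRT14, the basal type I partner of KRT5, did not follow it. HT1376 held 2928, 2667 and 2399 CPM and VMCUB 374 ± 18.2, but KU1919 only 13.5, 12.9 and 14.8. KRT5 over KRT14 on the scale per kb was thus 55.7 ± 3.25 in KU1919, 2.42 ± 0.44 in VMCUB and 0.190 ± 0.010 in HT1376. In KU1919 it was KRT15, another basal type I keratin, that was high, at 1242, 1214 and 1228 CPM, against 56.9 or less elsewhere. KRT17, a keratin of basal and injured epithelium, was highest in SW780 (1168, 1057 and 1157 CPM) and VMCUB (871, 885 and 878), which differed by 0.38 ± 0.16 on the log2 scale (edgeR adjusted p = 0.0406). SW780 had little KRT5 and KRT14, at 2.25 and 4.70 CPM.

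Among the wound keratins, KRT6A ranged from 1778 ± 241 CPM in VMCUB and 1257 ± 72.8 in HT1197 to 1.09 ± 0.04 in 639V. T24 moved from 27.6 CPM to the last place, at 0.817, without DMSO replicates 1 and 2. HT1197 had high KRT6A with 3.95 CPM of KRT5. KRT16, often paired with KRT6A, reached 76.9 ± 10.6 CPM in HT1376 and at most 7.16 elsewhere. KRT6B and KRT6C averaged at most 4.85 CPM, and in HT1197, VMCUB and KU1919 they stood beside KRT6A at 494 CPM or more.

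The suprabasal keratins were mostly those of HT1376. It had the highest mean of KRT1 (88.3 ± 6.07 CPM, against 0.189 or less elsewhere), KRT3, KRT4, KRT10 and KRT78. SW780 stood out for KRT13, a keratin of non-keratinizing epithelium that urothelium also makes, at 931, 847 and 936 CPM against 50.3 ± 5.14 in HT1376. KRT13 differed at 4 of the next 6 steps down (3 without DMSO replicates 1 and 2 of T24), ending at 0.267 in 639V. KRT10 was at 22.8 CPM or more in all 8 lines. KRT9, known from the skin of palms and soles, and KRT24 were at 3.86 CPM or less.

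Hair keratins were low with 1 exception. KRT81 was at 683, 600 and 703 CPM in TCCSUP and at 1.24 CPM or less in every DMSO library of the other 7 lines. On the scale per kb it ranked next to KRT18 in TCCSUP, with 26.5% of the summed level, a share that also depends on the length used. KRT86, its partial copy, was at 7.85 ± 0.94 CPM there. KRT34 was highest in HT1197, at 19.5 ± 2.12 CPM, and KRT31 in KU1919, at 8.86. TCCSUP also had the highest KRT80, at 569 ± 50.7 CPM, and held 4154 CPM of the collagen gene COL1A1 and 28.1 CPM of the leukocyte gene PTPRC, against at most 49.9 and 0.404 elsewhere. The part of these markers in the TCCSUP keratin pattern was not tested.

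With CPI-0209, the number of keratins called and their direction depended on the line. Over the 8 lines 168 tests of members gave 71 calls higher and 19 lower, where the same pooling over all genes gave 18.8% higher and 13.8% lower. In T24 the share of members called higher was below that of all genes. In HT1376, 23 of 28 tested members were higher and 0 lower, where 23.7% of all genes were called higher and 16% lower. In HT1197 12 of 24 were higher and 3 lower (background 11.8% and 7.8%), and in 639V 9 of 17 and 3 (22.1% and 17.1%). The 23 members higher in HT1376 included 17 that rose at least 2-fold.

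Elsewhere the counts lay nearer to those of all genes or ran both ways. SW780 had 7 of 21 higher and 8 lower (30.8% and 30.3%), TCCSUP 8 of 19 higher and 1 lower (25.7% and 23%), and VMCUB 5 of 20 higher and 3 lower (16.4% and 11%). KU1919 had 6 of 22 higher and 1 lower (9.3% and 2.4%), and T24 1 of 17 higher and 0 lower (9.37% and 0.93%). For the 0 lower in HT1376 with edgeR, DESeq2 and an unadjusted edgeR p under 0.05 also gave 0. For the 0 lower in T24, each gave 3, and KRT5, KRT6A and KRT14 were the 3 at an unadjusted p, which rest on DMSO replicates 1 and 2. Some tested members passed the filter through their CPI-0209 libraries alone, and these could hardly be called other than higher. They were called higher for KRT20 in HT1376, KRT3, KRT20 and KRT75 in KU1919, KRT16, KRT20 and KRT34 in 639V, KRT75 in TCCSUP and KRT3 in VMCUB. Their calls are part of the counts given here and support nothing about direction.

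**Figure D3:**
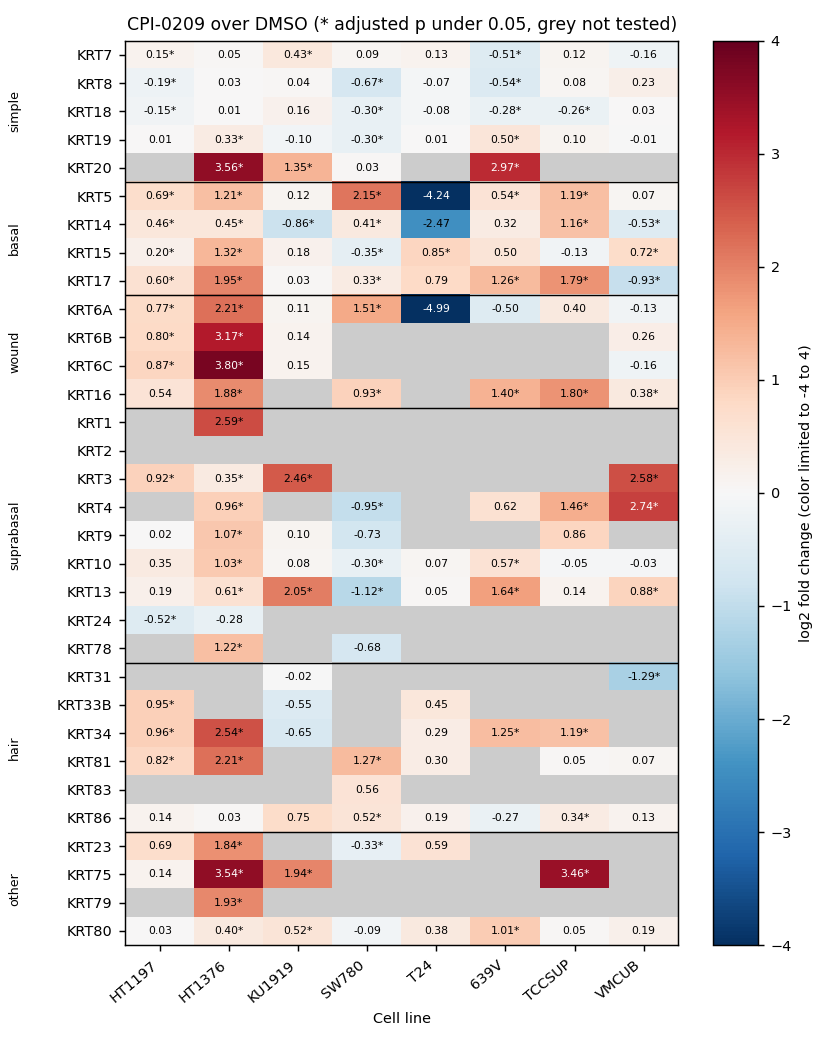
Log2 fold change of CPI-0209 over DMSO for each keratin (rows, by role) in each line (columns), with an asterisk where the adjusted p was under 0.05 and grey where the gene was not tested. In the HT1376 column all 8 basal and wound keratins are called higher, from 0.45 for KRT14 to 3.80 for KRT6C, while SW780 and VMCUB hold both colors and the large negative values of T24 rest on DMSO replicates 1 and 2.

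Of 36 tests of simple keratins, 9 were called lower and 7 higher, where pooled tests of all genes gave 13.8% lower and 18.8% higher. KRT20 gave 3 of the 7 through the filter described. KRT8 went from 2382, 2242 and 2357 CPM to 1557, 1351 and 1559 in SW780, a fall by 0.67 ± 0.06 on the log2 scale (edgeR adjusted p = 1.19e-08). It fell by 0.54 ± 0.06 in 639V (edgeR adjusted p = 7.15e-06), from 1489, 1496 and 1310 to 938, 1072 and 943 CPM. In both lines the groups did not overlap. In HT1197 it fell by 0.19 ± 0.06 (edgeR adjusted p = 0.0214), a call that ended in 4 of 6 fits without 1 library, with an adjusted p of up to 0.102.

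KRT18 fell in the same 3 lines and in TCCSUP, by 0.15 to 0.30 on the log2 scale. The TCCSUP change was from 2104, 2014 and 2316 to 1748, 1709 and 1769 CPM (fell by 0.26 ± 0.06, edgeR adjusted p = 0.0041), while KRT8 there stood at 0.08. Partners KRT8 and KRT18 were thus both lower in 3 lines and neither was called in 4. Scaling by library totals ended the KRT18 calls in SW780 (edgeR adjusted p = 0.0628) and HT1197 (0.054), and leaving out 1 library took the latter to 0.168.

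KRT7 and KRT19 went both ways. KRT7 fell in 639V by 0.51 ± 0.05 (edgeR adjusted p = 2.56e-06), from 922, 949 and 877 to 614, 705 and 612 CPM. It was called higher in KU1919 by 0.43 ± 0.10 (adjusted p = 0.0369) and in HT1197 by 0.16 ± 0.05 (0.0491), each lost in 4 of 6 fits without 1 library, at up to 0.169 and 0.184. KRT19 rose in 639V by 0.50 ± 0.08 (edgeR adjusted p = 0.000179), from 5.63 to 7.98 CPM, opposite to its partner KRT7. It also rose in HT1376 by 0.33 ± 0.08 (adjusted p = 0.0113, up to 0.0705 without DMSO replicate 2). In SW780 it fell by 0.30 ± 0.06 (0.000223, but 0.0914 with library totals).

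KRT20 was called higher in 3 lines, in each of which only its CPI-0209 libraries reached the filter, so that a fall could not have been called there. In HT1376 it went from 0.301, 0.141 and 0.220 to 2.92, 2.84 and 2.08 CPM, 11.8-fold (log2 3.56 ± 0.27, edgeR adjusted p = 7.06e-06). It rose in 639V from 6 to 63 counts over 3 libraries (log2 2.97 ± 0.60, adjusted p = 0.00138) and in KU1919 from 23 to 54 (1.35 ± 0.25, 0.0137, lost in 3 of 6 fits without 1 library, at up to 0.0826). SW780, which had most KRT20 in DMSO, stood at 0.914 ± 0.155 and 0.964 ± 0.212 CPM (edgeR adjusted p = 0.907). In the other 4 lines KRT20 had between 0 and 15 counts per group and was not tested.

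Of 32 tests of basal keratins, 18 were called higher and 4 lower (18.8% and 13.8% over all genes, pooled). KRT5 rose in SW780 from 2.37, 2.40 and 1.98 to 9.72, 9.54 and 11.1 CPM (log2 2.15 ± 0.10, edgeR adjusted p = 3.42e-12). In HT1376, where it was already abundant, it went from 986, 966 and 896 to 2179, 2220 and 2051 CPM (1.21 ± 0.06, adjusted p = 5.59e-07). TCCSUP rose by 1.19 ± 0.12 to 6.03 CPM, HT1197 by 0.69 ± 0.11 to 6.29 CPM and 639V by 0.54 ± 0.18 to 1.66 CPM. Groups did not overlap in any of these 5 lines. The 639V call (adjusted p = 0.0275) was lost in 4 of 6 fits without 1 library, at up to 0.102.

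In the lines with the most KRT5, no change was called: the value was 0.12 in KU1919 and 0.07 in VMCUB on the log2 scale. In T24 KRT5 stood at -4.24 (edgeR adjusted p = 0.0827) with all libraries and at 0.83 (0.569) without DMSO replicates 1 and 2. The latter fit has 1 DMSO library, assumed to vary like the CPI-0209 group.

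**Figure D4:**
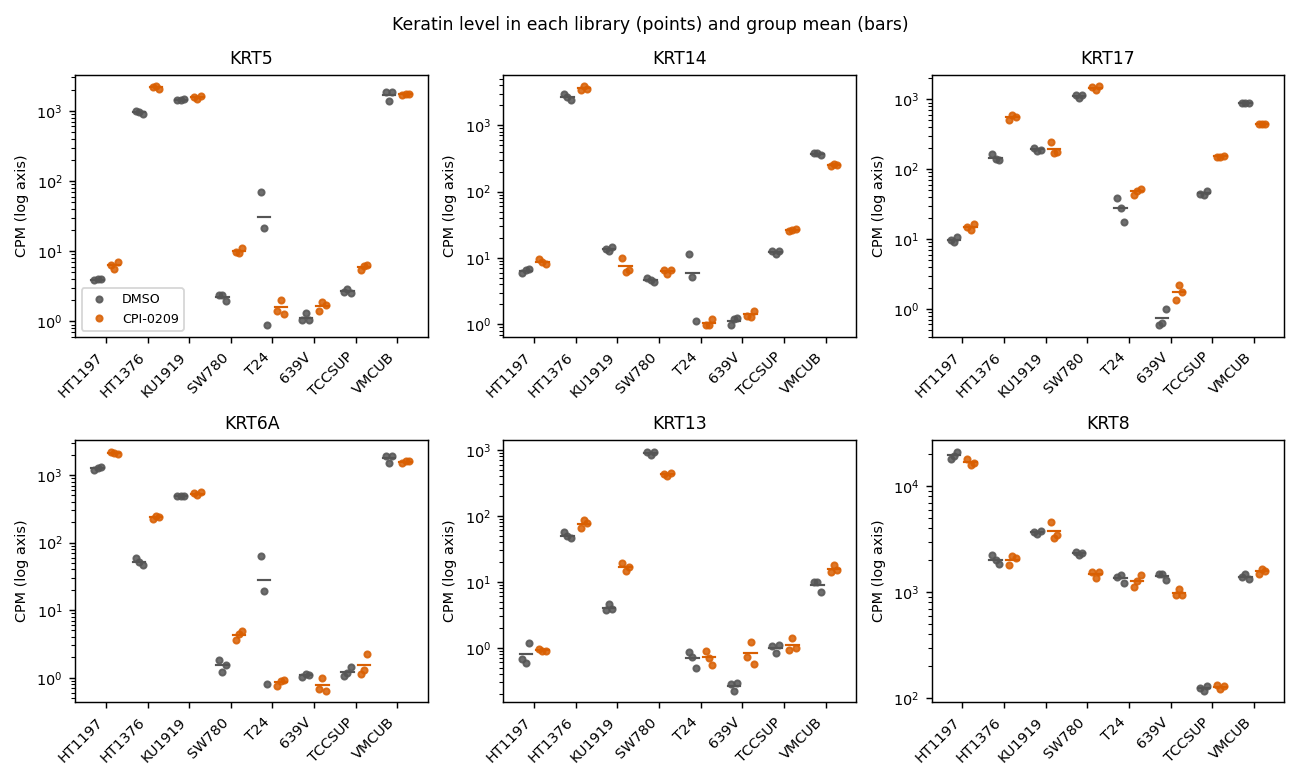
KRT5, KRT14, KRT17, KRT6A, KRT13 and KRT8 in each of the 48 libraries (points, CPM on a log axis) with the mean of each group (bars), DMSO in grey and CPI-0209 in orange. KRT13 goes up in KU1919 and down in SW780, KRT17 goes up in HT1376 and TCCSUP and down in VMCUB, and DMSO replicates 1 and 2 of T24 lift its KRT5 and KRT6A.

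KRT14 rose in 4 lines and fell in 2. It went from 12.6, 11.4 and 12.6 to 25.8, 26.7 and 27.2 CPM in TCCSUP (log2 1.16 ± 0.07, edgeR adjusted p = 1.52e-08). HT1197 (0.46 ± 0.09), HT1376 (0.45 ± 0.09) and SW780 (0.41 ± 0.10) rose less. In VMCUB it fell by 0.53 ± 0.07 (adjusted p = 0.00185), from 386, 384 and 353 to 245, 258 and 248 CPM. KU1919 fell by 0.86 ± 0.17 (adjusted p = 0.0164), from 13.5, 12.9 and 14.8 to 10.0, 6.12 and 6.66 CPM, a call lost in 5 of 6 fits without 1 library at up to 0.0722. KRT5 and KRT14 were both higher in 4 of 8 lines.

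KRT17 rose in 5 lines and fell in 1. In HT1376 it rose from 164, 139 and 136 to 510, 596 and 557 CPM (log2 1.95 ± 0.09, edgeR adjusted p = 1.85e-07). In TCCSUP it rose from 44.6, 42.0 and 48.4 to 151, 150 and 156 CPM (1.80 ± 0.06, adjusted p = 7.59e-11). Rises in 639V (1.26 ± 0.24, to 1.74 CPM), HT1197 (0.60 ± 0.08) and SW780 (0.33 ± 0.06) were also called. VMCUB went the other way, from 871, 885 and 878 to 436, 450 and 449 CPM (fell by 0.93 ± 0.06, adjusted p = 0.000162). In T24 it stood at 0.79 (0.115) with all libraries and at 1.45 (0.0314) without DMSO replicates 1 and 2.

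KRT15 was the only member called in T24, from 7.88, 6.68 and 7.06 to 12.4, 13.4 and 12.7 CPM (log2 0.85 ± 0.11, edgeR adjusted p = 0.0025). Without DMSO replicates 1 and 2 its value was 0.84 (adjusted p = 0.0807). It rose in HT1376 by 1.32 ± 0.07, to 102 CPM, and in VMCUB by 0.72 ± 0.07, to 15.4 CPM. In HT1197 it was called higher by 0.20 ± 0.07, with overlapping groups and an adjusted p of up to 0.179 without 1 library. SW780 fell by 0.35 ± 0.05 (adjusted p = 2.35e-06).

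Of 22 tests of wound keratins, 12 were called higher and 0 lower with edgeR (18.8% and 13.8% over all genes, pooled). Of the 12, 1 passed the filter only through CPI-0209 libraries, KRT16 in 639V. At an unadjusted p under 0.05, 2 were lower: KRT6A in T24, which DESeq2 called lower, and KRT6A in 639V, at -0.50 on the log2 scale without overlap between groups (edgeR adjusted p = 0.072). In HT1376 all 4 rose: KRT6A went from 58.9, 50.9 and 47.1 to 227, 247 and 238 CPM (log2 2.21 ± 0.08, edgeR adjusted p = 6.88e-08). KRT16 rose by 1.88 ± 0.09 in HT1376, from 89.1, 71.9 and 69.9 to 265, 293 and 277 CPM. KRT6C went from 0.739 to 10.2 CPM there (3.80 ± 0.17) and KRT6B from 2.97 to 26.4 (3.17 ± 0.11). Groups did not overlap for any of the 4. With KRT6A, KRT6B and KRT6C summed to 1 entry, the HT1376 value was 2.32 (edgeR adjusted p = 5.69e-08).

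In HT1197 KRT6A rose from 1179, 1270 and 1322 to 2211, 2085 and 2066 CPM (log2 0.77 ± 0.04, edgeR adjusted p = 2.84e-09). KRT6C was called there too, at 0.87 ± 0.11, and KRT6B at 0.80 ± 0.26, the latter lost in 5 of 6 fits without 1 library at an adjusted p of up to 0.156. In SW780 KRT6A rose by 1.51 ± 0.15, to 4.36 CPM, and KRT16 by 0.93 ± 0.07, to 13.9 CPM. KRT16 also rose in TCCSUP by 1.80 ± 0.24, to 1.66 CPM, in 639V by 1.40 ± 0.33, to 0.522 CPM, and in VMCUB by 0.38 ± 0.10. The VMCUB call (adjusted p = 0.0285) was lost in 5 of 6 fits without 1 library, at up to 0.118. KRT6A was not called in VMCUB, the line with most of it, nor in KU1919 or TCCSUP. Its VMCUB groups overlapped, at 1920, 1500.5 and 1914 CPM in DMSO and 1525, 1589 and 1594 CPM with CPI-0209. KRT6A in T24 stood at -4.99 (edgeR adjusted p = 0.055) with all libraries and at 0.03 (0.985) without DMSO replicates 1 and 2.

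Of 35 tests of suprabasal keratins, 16 were called higher, 7 of them in HT1376, and 4 lower (18.8% and 13.8% over all genes, pooled). Of the 16, 2 passed the filter only through CPI-0209 libraries, KRT3 in KU1919 and in VMCUB. KRT1, the epidermal partner of KRT10, rose in HT1376 from 94.7, 87.4 and 82.7 to 586, 517 and 465 CPM (log2 2.59 ± 0.09, edgeR adjusted p = 5.75e-08). It was tested in no other line. KRT10 rose there by 1.03 ± 0.10, from 197 to 394 CPM, and KRT1 over KRT10 per kb went from 0.387 ± 0.019 to 1.15 ± 0.03. In HT1376 KRT4, KRT9, KRT13, KRT78 and, by 0.35 ± 0.09, KRT3 were also higher. The KRT3 call reached an adjusted p of 0.0554 without 1 library. KRT10 rose in 639V by 0.57 ± 0.11 (edgeR adjusted p = 0.00413) and fell in SW780 by 0.30 ± 0.05, where library totals gave an adjusted p of 0.0996.

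KRT13 fell in SW780, the line with most of it, and rose in 4 others. SW780 fell from 931, 847 and 936 to 428, 395 and 450 CPM (by 1.12 ± 0.06 on the log2 scale, edgeR adjusted p = 6.45e-12). KU1919 rose from 3.80, 4.57 and 3.83 to 19.3, 14.7 and 17.0 CPM (2.05 ± 0.12, adjusted p = 0.000145). Rises were also called in 639V (1.64 ± 0.33, to 0.836 CPM), VMCUB (0.88 ± 0.15, to 15.7 CPM) and HT1376 (0.61 ± 0.11, to 75.7 CPM). HT1197, T24 and TCCSUP, at 1.00 CPM or less in DMSO, were not called (edgeR adjusted p of 0.662, 0.953 and 0.65).

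KRT4, the type II partner of KRT13, fell with it in SW780, by 0.95 ± 0.09 to 5.16 CPM, and rose in VMCUB from 0.540, 0.711 and 0.366 to 3.10, 3.89 and 3.37 CPM (log2 2.74 ± 0.23, edgeR adjusted p = 0.000356). TCCSUP rose by 1.46 ± 0.15, to 3.06 CPM, and HT1376 by 0.96 ± 0.08, to 277 CPM. KRT3, a keratin of the cornea, was also called higher in HT1197 (0.92 ± 0.23, to 1.35 CPM) and, below 1 CPM, in KU1919 and VMCUB. Leaving out 1 library took the HT1197 call to an adjusted p of up to 0.0579. KRT24 fell in HT1197 by 0.52 ± 0.12 (adjusted p = 0.00649), from 3.82, 4.04 and 3.70 to 2.81, 2.31 and 2.81 CPM.

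Of 26 tests of hair keratins, 10 were called higher and 1 lower (18.8% and 13.8% over all genes, pooled). Of the 10, 1 passed the filter only through CPI-0209 libraries, KRT34 in 639V. KRT34 rose in HT1197 from 17.2, 19.9 and 21.3 to 38.9, 36.0 and 37.1 CPM (log2 0.96 ± 0.06, edgeR adjusted p = 4.38e-08), with its neighbor KRT33B at 0.95 ± 0.14, to 4.44 CPM. KRT34 also rose in HT1376 (2.54 ± 0.18, to 4.21 CPM), in TCCSUP (1.19 ± 0.17, to 2.46 CPM) and in 639V, below 1 CPM. KRT81 rose in HT1376 from 1.00, 1.24 and 1.10 to 4.99, 5.12 and 5.05 CPM (2.21 ± 0.13), in SW780 to 2.04 (1.27 ± 0.16) and in HT1197 to 1.28 (0.82 ± 0.21). The HT1197 call reached an adjusted p of 0.0564 without 1 library.

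In TCCSUP, where KRT81 was abundant, its value was 0.05 ± 0.06 (edgeR adjusted p = 0.522), from 662 ± 54.5 to 670 ± 8.89 CPM. KRT86 was called higher in SW780 (0.52 ± 0.12) and TCCSUP (0.34 ± 0.10, up to an adjusted p of 0.0554 without DMSO replicate 2). Summed as 1 entry with KRT83 and KRT86, KRT81 was at 0.59 in HT1376 (edgeR adjusted p = 0.000661), 0.74 in SW780 (2.8e-06) and 0.46 in HT1197 (0.0359). KRT31 fell in VMCUB by 1.29 ± 0.18 (adjusted p = 0.00302), from 1.65, 1.94 and 1.56 to 0.606, 0.796 and 0.616 CPM. KRT83 was tested only in SW780 and was not called.

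Of the other epithelial keratins, KRT75, known from the hair follicle and nail bed, rose in HT1376 from 0.451, 0.366 and 0.357 to 4.49, 4.87 and 4.25 CPM (log2 3.54 ± 0.16, edgeR adjusted p = 2.41e-07). It was also called higher, below 1 CPM, in TCCSUP, from 5 to 63 counts over 3 libraries, and in KU1919. KRT79 and KRT23 rose in HT1376 to 20.6 and 20.8 CPM (1.93 ± 0.08 and 1.84 ± 0.11). KRT23 fell in SW780 by 0.33 ± 0.11, with overlapping groups and an adjusted p of 0.294 with library totals. KRT80, a broadly expressed keratin, rose in 639V from 17.9, 16.7 and 18.5 to 34.8, 37.1 and 34.9 CPM (1.01 ± 0.06, adjusted p = 4.62e-09), in HT1376 by 0.40 ± 0.06 and in KU1919 by 0.52 ± 0.10. The KU1919 call was lost in 4 of 6 fits without 1 library, at an adjusted p of up to 0.0954.

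Leaving out each of the 6 libraries of a line in turn left 21 of 23 calls in HT1376, 14 of 15 in SW780, 11 of 12 in 639V, 8 of 9 in TCCSUP and 7 of 8 in VMCUB past the threshold every time. It left 8 of 15 in HT1197 and 2 of 7 in KU1919, where KRT13 and KRT75 were the 2. Some calls left every time had passed the filter through CPI-0209 libraries alone. These were KRT75 in KU1919 and TCCSUP, KRT16, KRT20 and KRT34 in 639V, KRT20 in HT1376 and KRT3 in VMCUB. That they were left supports nothing about direction.

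The balance of the filament partners is given as a description. The summed type I level per kb of exon over the summed type II level was 1.96 ± 0.03 in HT1376 DMSO and 1.73 ± 0.03 with CPI-0209 (SD, n = 3). It went from 1.29 ± 0.02 to 1.17 ± 0.01 in HT1197, from 1.28 ± 0.01 to 1.10 ± 0.01 in SW780, from 1.56 ± 0.02 to 1.38 ± 0.02 in TCCSUP and from 0.834 ± 0.007 to 0.732 ± 0.039 in KU1919. Line 639V went the other way, from 0.475 ± 0.011 to 0.587 ± 0.011. With these lengths groups did not overlap in these 6 lines, did in T24 (0.626 to 0.680 against 0.580 to 0.642) and did in VMCUB (0.683 to 0.894 against 0.722 to 0.728). With 3 libraries against 3, an exact permutation test of 1 such ratio cannot go below 0.10, so no test is given. The ratio depended on the length used: with the longest transcript it was 1.37 ± 0.02 and 1.36 ± 0.01 in HT1376, where the groups then overlapped, and the DMSO value was 0.940 in HT1197, 0.934 in SW780 and 2.56 in TCCSUP. On the scale per kb of exon union, KRT8 over KRT18 in TCCSUP with CPI-0209 stayed far below the other lines, at 0.0344 ± 0.0011.

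**Figure D5:**
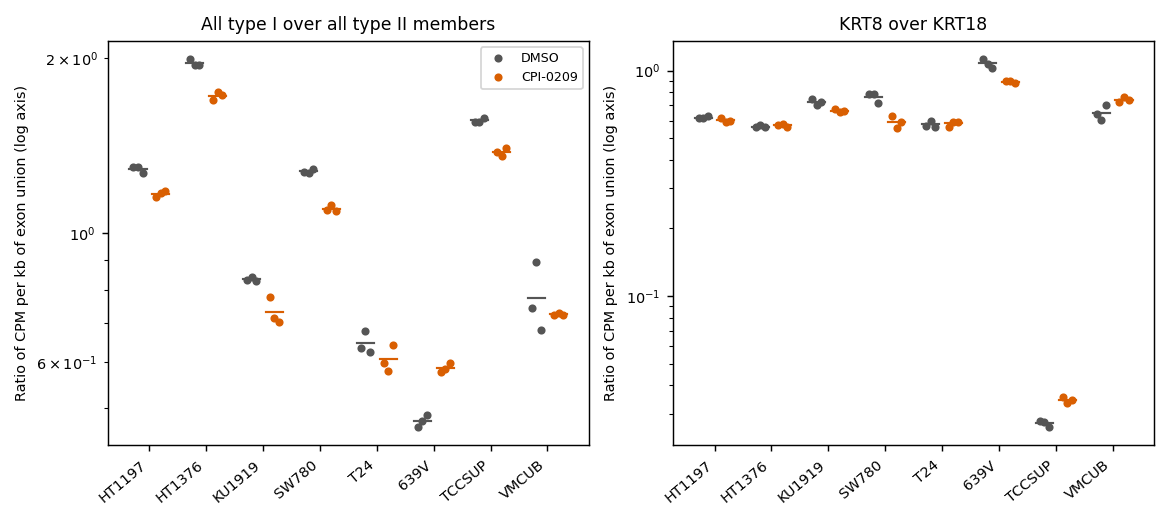
Summed type I over summed type II keratin level (left) and KRT8 over KRT18 (right), both from CPM per kb of exon, in each library (points) with group means (bars) on log axes, DMSO in grey and CPI-0209 in orange. With exon-union lengths the left ratio is lower with CPI-0209 in HT1197, HT1376, KU1919, SW780 and TCCSUP and higher in 639V, and the right ratio of TCCSUP, 0.0272 in DMSO, lies far below the rest.

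Counts summed over replicates, 16 sums in all, were used to test for a common response in which the lines are the replicates. Only KRT16 of 26 tested members was called, higher by 1.07 ± 0.21 on the log2 scale (edgeR adjusted p = 0.0205), where 7.31% of 18110 genes were called higher and 4.41% lower. Its mean over lines was 11.5 and 38.0 CPM, mostly from HT1376 (76.9 and 278 CPM), and over the other 7 lines it was 2.19 and 3.69 CPM. KRT16 was called higher in 5 of the 6 lines where it was tested. Of these, 639V reached the filter only through its CPI-0209 libraries, so that its call says nothing about direction. The VMCUB call was lost in 5 of 6 fits without 1 library. For the 0 members lower, 0 members passed an unadjusted p under 0.05 in that direction, and DESeq2 called 0. In all, 10 of the 26 passed an unadjusted p under 0.05. The shares of all genes given here are at the adjusted threshold and are no background for that number. Without DMSO replicates 1 and 2 of T24, KRT5 was called as well, at 0.83 ± 0.22 (adjusted p = 0.049), against 0.40 ± 0.59 (0.673) with them, and the background was 6.48% higher and 2.53% lower. The median over the 4 wound keratins was 0.87, over the 4 basal keratins 0.40 and over the 5 simple keratins 0.02. It was 0.73 over 4 tested hair, 0.54 over 2 tested other epithelial and 0.52 over 7 tested suprabasal keratins. Over all tested members it was 0.50, beside -0.01 over all genes tested. Without these 2 T24 libraries the role medians were, in the same order, 1.07, 0.60, 0.04, 0.78, 0.63 and 0.58.

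The response differed between lines for 28 of the 31 tested members in an F test of the 7 line by treatment terms on all 48 libraries, where 58.7% of all genes did. KRT24, KRT83 and KRT86 missed the threshold. Among the 28, 9 were called higher in at least 1 line and lower in at least 1 other: KRT4, KRT7, KRT10, KRT13, KRT14, KRT15, KRT17, KRT19 and KRT23. KRT4 had the smallest interaction p of them (edgeR adjusted p = 6.93e-15), followed by KRT13 (3.33e-14) and KRT17 (2.11e-13). The share of all genes called in both directions was not counted, so the 9 have no background. For KRT10, KRT19 and KRT23 the only lower call, in SW780, was lost with library totals. Both higher calls of KRT7 were lost in 4 of 6 fits without 1 library. Only 2 members, KRT2 and KRT83, were called in no line.

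Genes that work with keratins were read from lists. In the shared fit 7.31% of all genes were called higher and 4.41% lower, which is the background of the numbers called in the lists below. It does not apply to the numbers at an unadjusted p. Among desmosome and linker genes, which anchor keratin filaments to cell junctions, 1 of 16 tested was called in that fit. PKP1, plakophilin 1, rose by 0.86 ± 0.14 (edgeR adjusted p = 0.0151), with 260 ± 14.4 and 470 ± 27.3 CPM in HT1376. The next by p, DSP, PLEC and DST, stood at 0.70, -0.15 and -0.15 and were not called. Among filament organizers 2 of 10 were called. TCHH, trichohyalin of the hair follicle, rose by 1.19 ± 0.25 (adjusted p = 0.024) and was called in 7 of 8 lines. CSNK1A1, a casein kinase, fell by 0.17 ± 0.04 (0.0402). FAM83H, which recruits that kinase to keratin filaments, stood at -0.15 and PNN at -0.10. Without TCCSUP or T24 none of the organizers was called.

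Of the 16 transcription factors known to act on keratin genes, 0 were called in the shared fit with edgeR, and 3 passed an unadjusted p under 0.05. FOSL1, GRHL3, GATA3 and KLF4 came first by p, at -0.16, 0.84, 0.33 and 0.41. Keratins outside the members were mostly too low to test: 2 of 22, KRT33A and KRT27, were tested, at 0.37 and 0.41, and 0 were called or passed an unadjusted p under 0.05. Beside these, 1 of 8 fibroblast markers (COL1A1, 1.10 ± 0.20), 1 of 7 mesenchymal markers (FN1, 0.64 ± 0.15) and 1 of 4 tested endothelial markers (ERG) were called higher in the shared fit. Of 9 tested urothelial markers 0 were called there in either direction, and 1 passed an unadjusted p under 0.05. In SW780 alone 10 of 10 urothelial markers were called lower (median -0.89), where 30.3% of all genes were. In each other line 1 to 4 of them were called higher and 0 to 3 lower. Summed over each list, fibroblast markers ranged between lines from 6.04 to 8682 CPM in DMSO and from 20.4 to 12180 with CPI-0209, and urothelial markers from 21.8 to 2944 and from 35.8 to 2709. The mesenchymal sum ranged from 115 to 15510 and from 165 to 17330. None of these markers was at 0 counts in every line, and their part in the keratin results was not tested.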

How the data were processed

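The deposited table holds counts as whole numbers, 1 row per Ensembl gene and 1 column per library. Per the submitters' processing notes they used STAR 2.7.3a and RSEM 1.3.1 with hg38. RSEM gives estimated counts, and how these became whole numbers, with which annotation and strand setting, was not given in these sources. Symbols came from a gene name table (35414 of 35535 genes), and coordinates and exon lengths from GENCODE 29.

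Each line was tested on its 6 libraries with edgeR 4.0.16 in R 4.3.3 (TMM, filterByExpr with a minimum count of 10, robust quasi-likelihood F test, 4 residual degrees of freedom), with Benjamini-Hochberg adjustment over all genes tested and a threshold of 0.05. The shared response used 16 sums with line as a term, and the interaction and DMSO tests used 48 and 24 libraries. SE was derived from F, as the size of the log2 fold change over its square root. Levels between genes were compared as CPM per kb of exon union. The main edgeR fits (per line, shared, interaction and DMSO) were run on simulated counts, and the alternative settings were not.

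The members, lists and naming rule were chosen with earlier results of these data known. All 32 members are accounted for. KRT5, KRT6A, KRT8, KRT13, KRT14, KRT18 and KRT20 are always described, with up to 6 higher and 4 lower members per line at 1 CPM or more and without overlap between groups, members called in both directions, and up to 4 genes per outside list by p. Other called members are named for completeness. Alternatives were RLE factors, library totals, no filter, DESeq2 1.42.0, a replicate block, summed copies, 1 fit of all libraries, and leaving out libraries or lines. Leaving out T24 DMSO replicates 1 and 2 was added after seeing the data.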

Additional observations from a re-analysis of the deposited data

Results flagged for a closer look

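The effect of CPI-0209 differed between the 8 lines for 28 keratins, by the F test of the line by treatment terms itself, and the values in brackets are edgeR adjusted p-values of that test. Members called higher in one line and lower in another were KRT4 (6.93e-15), KRT7 (2.18e-06), KRT10 (3.29e-05), KRT13 (3.33e-14), KRT14 (2.03e-07), KRT15 (2.59e-12), KRT17 (2.11e-13), KRT19 (0.00169) and KRT23 (1.69e-06). The widest of these gaps lay between lines with opposite calls: KRT13 at 2.05 in KU1919 and -1.12 in SW780, KRT4 at 2.74 in VMCUB and -0.95 in SW780, and KRT17 at 1.95 in HT1376 and -0.93 in VMCUB, each a log2 fold change. The share of all genes with opposite calls was not counted. In KRT7, KRT10, KRT19 and KRT23 every call of 1 direction was lost with library totals or in fits without 1 library. KRT5 was called higher in HT1197, HT1376, SW780, TCCSUP and 639V, and was not called in VMCUB and KU1919, the lines with most of it.

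Among the other basal and wound keratins the values were KRT5 (1.25e-06), KRT6A (1.95e-07), KRT6B (3.42e-09), KRT6C (5.31e-11) and KRT16 (3.54e-08). KRT5, KRT6A and KRT14 carry the spread of T24 DMSO replicates 1 and 2, and without these 2 libraries their adjusted p-values were 1.07e-13, 5.04e-15 and 4.92e-13. The remaining members with a difference between lines were KRT9 (0.00507), KRT18 (0.029), KRT20 (7.89e-05), KRT31 (4.64e-05), KRT33B (0.00206), KRT34 (3.45e-08), KRT1 (1.99e-08), KRT3 (0.00197), KRT8 (1.12e-05), KRT75 (4.69e-06), KRT78 (0.0197), KRT79 (0.0024), KRT80 (3.01e-07) and KRT81 (4.45e-12).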

How the results depend on the processing

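Counts of called keratins (per line, shared and between lines) and of called partner genes that are not named here stayed within 1.5 times their value under every alternative run, and the cause of each shift was not tested. One fit of all 48 libraries gave 5 higher (12 with 1 fit per line) and 0 lower (3) in HT1197, and 3 higher (1) and 5 lower (0) in T24. DESeq2 gave 2 higher and 3 lower in T24 and 6 higher in the shared response (1). Library totals gave 4 lower in SW780 (8), 2 higher in the shared response and 1 called organizer (2), and no filter on low counts gave 2 higher in the shared response. Scaling by library totals moved the median log2 fold change of all genes to 0.22 in SW780 and 0.13 in VMCUB, from 0.02 and 0.04, and the share of calls that were higher from 50.5% to 75% and from 59.9% to 79.8%. In HT1197, 639V and the shared response it moved that share from 60.3% to 75.6%, from 56.4% to 71.9% and from 62.4% to 93.9%.

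Leaving out 1 library gave 1 to 3 lower in HT1197, with 1 without replicate 2 or 3 of either treatment, and 1 to 2 higher in T24, with 2 without DMSO replicate 1. In KU1919 it gave 2 to 9 higher (6), with 2 or 3 without any 1 DMSO library, and 0 to 2 lower (1), with 2 without CPI-0209 replicate 1 and 0 without each other library. It gave 0 to 3 lower in T24, where the 3 came without DMSO replicate 3, and 3 to 5 lower in VMCUB, where the 5 came without DMSO replicate 2. Leaving out 1 line gave 1 to 2 higher keratins in the shared response, with 2 without HT1376 or SW780. It gave 0 to 2 called organizers, with 0 without T24 or TCCSUP and 1 without HT1197, HT1376, KU1919, 639V or VMCUB. KRT16 stayed past the threshold without any 1 line, with an adjusted p of up to 0.0497 without HT1376.

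With DMSO replicate 3 as the only T24 DMSO library, KRT5 and KRT6A in T24 turned to 0.825 and 0.034 and 2 keratins were called higher in the shared response. Replicate numbers did not pair the samples: in no line did all 3 pairs correlate above 0.1 in their deviations. With the replicate block 9 single calls were lost, among them KRT10 in 639V (adjusted p = 0.124), 1 keratin was lower in HT1197, and in 48 libraries with the block 18 were higher and 1 lower in the shared response, a fit that takes libraries, not lines, as replicates. Of single values 2 reversed, 101 lost and 30 gained a call, and 1226 kept theirs. The type I to type II ratio with the longest transcript as length moved by more than its spread in 15 of 16 groups. The interaction test was left without 1 library for 16 of the 48 libraries, 1 per group, giving 27 to 28. Calls on genes near 1 CPM rest on few counts.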
